A study of Arabidopsis thaliana with 24 samples.

Results

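The genes described here are the nuclear genes for subunits of the photosynthetic electron transport chain of Arabidopsis thaliana. They were taken from a fixed list of gene identifiers, without use of any measured value. The list holds 33 genes: 12 for photosystem I (PSA genes), 11 for photosystem II (PSB genes), 7 for electron carriers (PETC, PETE, FNR and FD genes) and 3 for the chloroplast ATP synthase (ATPC1, ATPD and ATPG). Light-harvesting antenna genes are not among them. All 33 had values in every library, out of 17952 genes with values and 37336 genes in the deposited table.

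In the thylakoid membrane of the chloroplast, photosystem II splits water and passes electrons through the cytochrome b6f complex to plastocyanin. Photosystem I then lifts them to ferredoxin, and ferredoxin:NADP reductase (FNR) hands them to NADP. The protons moved along the way drive the ATP synthase. The reaction-centre cores of these complexes are encoded in the plastid, whereas the genes here, all nuclear, encode docking, stabilizing, regulatory and mobile parts that are imported from the cytosol. Chilling in the light slows carbon fixation more than light capture, so the balance between the photosystems and their acceptors is a known point of stress.

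Whole seedlings were sampled in 8 groups of 3 libraries, each library from a pool of 10 seedlings. The genotypes were Col-0 wild type (WT) and sig5-3 (SALK_141383C), a T-DNA line of SIG5, a nuclear gene for a sigma factor of the plastid RNA polymerase. All seedlings grew for 11 days at 19 °C in a photoperiod of 12 h and then spent 24 h in continuous light. Seedlings then went to 4 °C for 5 h from ZT27 or for 3 h from ZT45, or stayed at 19 °C in parallel, where ZT is the time in hours after dawn. Start and length of chilling changed together, so their effects cannot be told apart, and ZT27 and ZT45 below name the 2 time sets by their start. In whole seedlings, fewer green cells and less RNA per green cell cannot be told apart either.

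Each value is a normalized read abundance per gene, scaled by the authors and not divided by gene length. Library totals ran from 790711 to 1092052, and the estimated reads behind them from 21275989 to 36441424, and every member was above 57 in every library. SIG5 itself matched the labels. It stood at 96.6, 92.4 and 89.3 in WT at 4 °C in the ZT27 set and at 17.2, 23.4 and 18.6 in sig5-3, and was lower in sig5-3 than in WT in all 4 conditions, with log2 differences from -2.47 to -2.14. Reads from SIG5 were therefore fewer but not absent, and a value per gene does not show whether they come from whole transcripts. 1 library lay apart. The values of sig5-3 replicate 1, chilled from ZT27, scattered around the mean of their group with a root mean square log2 deviation of 0.263, where the other libraries had 0.082 to 0.17. In it, 28 of the 33 members lay above their group mean, by a median of 0.21. Members shifted together in other libraries too, with smaller medians. In WT at 19 °C in the ZT27 set, 32 lay above the mean in replicate 1 (median 0.115) and 32 below it in replicate 3 (median -0.068). Of 8 root marker genes, 6 had values, and COBL9 and EXPA7, genes of root hair cells, had none. The 6 spanned a wide range over the libraries, from CASP1 (an endodermis protein) at 0.813 to 2.24, NRT2.1 (a root nitrate transporter) at 0.868 to 6.05, SHR at 8.86 to 15.5, PHO1 at 13.9 to 24.6 and SCR at 17.8 to 54.1 up to BGLU23, a glucosidase of root endoplasmic reticulum bodies, at 445 to 1075. Whole seedlings thus held root transcripts.

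To compare levels between genes, values were divided by exon length and averaged over the 8 groups. PSBO1, for the main water-oxidation scaffold protein, led with 2926 per kilobase, followed by FD2, the main leaf ferredoxin, with 2790 and PSBR, a small lumenal photosystem II protein, with 2778. The lowest were PETE1, the minor plastocyanin, with 98.8 per kilobase, FD1, the minor leaf ferredoxin, with 392, and PSAD2, the minor copy of the ferredoxin-docking subunit, with 431. Between copies of 1 subunit the level per kilobase differed most for plastocyanin, where PETE2 reached 2268, and least for FNR, where FNR1 stood at 571 and FNR2 at 544. Together the 33 genes made up 4.64% to 5.965% of the total value of a library.

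The first question was how these genes responded to chilling. No member reached the fold threshold of 1.5 on the log2 scale that the study's design names. After 3 h from ZT45, photosystem I genes fell almost as a block in both genotypes, and photosystem II genes fell in part. After 5 h from ZT27, most members did not pass, while PSBS, PSBY and FD2 rose and PSAD2, PETE1 and FNR2 fell in both genotypes. The rises of PSBY and FD2 lost their calls in both genotypes when libraries were scaled to equal totals. A gene is said to have risen or fallen where limma, fitted to all 24 libraries on log2(value + 0.5), gave an adjusted p under 0.05 over all genes.

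In WT in the ZT27 set, 3 of the 33 members rose, where 27.6% of all genes did, and 6 fell, where 28.9% of all genes did. Both shares of members lay under the background. The 3 that rose (PSBS, PSBY and FD2) became 1 without replicate 3 of WT at 19 °C. In WT in the ZT45 set, 1 member (FNR2) rose, 0 without replicate 3 at 19 °C or replicate 1 at 4 °C, with a background of 20.2%, and 16 fell, with a background of 15.5%. For sig5-3 in the ZT27 set, 10 members rose and 3 fell, with backgrounds of 29.6% and 30.4%. For sig5-3 in the ZT45 set, 0 members rose, also at an unadjusted p under 0.05, and 23 fell, with backgrounds of 17.9% and 17.4%. The median log2 fold change of the members was -0.21 in WT and -0.32 in sig5-3 in the ZT45 set, where the medians of all genes were 0.027 and -0.0069.

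Calls in the ZT27 set depended on how libraries are scaled. The chilled libraries of that set had higher totals, and scaling every library to 1 total moved the median of all genes to -0.15 in WT and -0.25 in sig5-3. With that scaling 1 member rose and 22 fell in WT, where 3394 of all 17952 genes rose and 7539 fell. In sig5-3 1 member rose and 16 fell, where 2787 of all genes rose and 9648 fell. In the ZT45 set the same scaling gave 0 higher and 24 lower in WT and 0 higher and 25 lower in sig5-3. Over all genes it gave 2803 higher and 3186 lower in WT and 3427 higher and 2594 lower in sig5-3 there. Scaling each library by its median ratio over genes gave other counts in the ZT27 set. With it 3 members rose and 5 fell in WT, where 5396 of all genes rose and 4799 fell. In sig5-3 13 members rose and 3 fell, where 5589 of all genes rose and 5214 fell. Rises of small size in the ZT27 set are therefore relative to the scaling chosen. Leaving out replicate 1 of sig5-3 at 4 °C reduced the 10 members that rose in sig5-3 to 4, namely PSBS, PSBY, FD2 and ATPG, and leaving out replicate 1 of sig5-3 at 19 °C reduced them to 6. The 3 members that fell there (PSAD2, PETE1 and FNR2) did so in every omission. A fit to only the groups compared called 1 member higher in sig5-3 in this set.

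**Figure D1:**
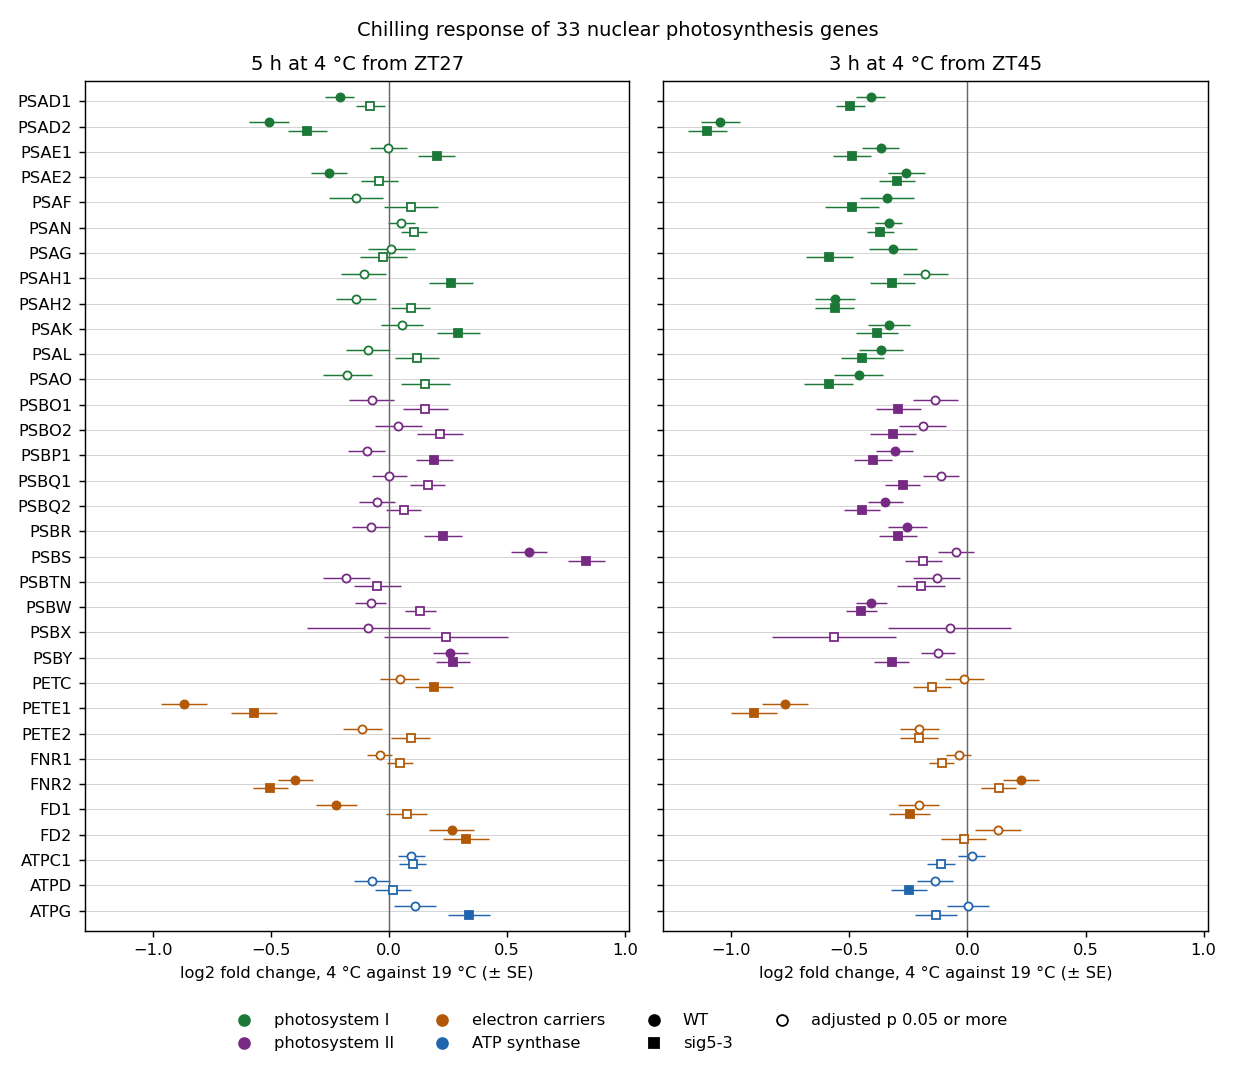
Log2 fold change of each member at 4 °C against 19 °C in the ZT27 set (left) and the ZT45 set (right), with the SE of the fit. Circles are WT and squares sig5-3, colours mark the complex, and open symbols have an adjusted p of 0.05 or more. All photosystem I points lie left of 0 in the ZT45 set, with PSAD2 at -1.05 in WT, whereas FNR2 lies left of 0 in the ZT27 set and right of it in the ZT45 set.

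Photosystem I genes fell in 11 of 12 cases in WT and in 12 of 12 in sig5-3 in the ZT45 set. The stromal ridge, where ferredoxin docks, is made of PSAD and PSAE with the plastid-encoded PsaC, and PSAF and PSAN lie on the lumenal side, where plastocyanin docks. All 6 of these genes fell in the ZT45 set in both genotypes, by log2 fold changes from -1.05 to -0.26 in WT and from -1.10 to -0.30 in sig5-3. In the ZT27 set 3 fell in WT (PSAD1, PSAD2 and PSAE2), while in sig5-3 PSAD2 fell and PSAE1 rose.

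PSAD2 moved most. In the ZT27 set of WT it stood at 548, 495 and 478 at 19 °C and 356, 371 and 342 at 4 °C, and in the ZT45 set at 499, 474 and 419 at 19 °C and 228, 210.1 and 234 at 4 °C. Every chilled library was below every library at 19 °C, and the gap was wider in the ZT45 set, where PSAD2 reached its lowest values in WT. The log2 fold change was -0.51 ± 0.083, adjusted p = 1.4e-05, after chilling from ZT27 and -1.05 ± 0.083, adjusted p = 4.3e-10, after chilling from ZT45. For sig5-3 PSAD2 stood at 590.4, 515 and 542 at 19 °C and 404, 430.4 and 461 at 4 °C in the ZT27 set and at 522, 479 and 556 at 19 °C and 268, 243 and 216 at 4 °C in the ZT45 set. These groups did not overlap either, with log2 fold changes of -0.35 ± 0.083, adjusted p = 0.001, and -1.10 ± 0.083, adjusted p = 1.7e-10.

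PSAD1, the major copy, followed with smaller changes. In the ZT27 set of WT it stood at 1652, 1465 and 1488 at 19 °C and 1318, 1373 and 1286 at 4 °C, and in the ZT45 set at 1464, 1413 and 1314 at 19 °C and 1055, 1032 and 1066 at 4 °C. Chilled libraries were lower without overlap in both sets, by -0.21 ± 0.062, adjusted p = 0.0057, and by -0.41 ± 0.062, adjusted p = 1.2e-05. In sig5-3 PSAD1 stood at 1699, 1587 and 1611 at 19 °C and 1578, 1544 and 1511 at 4 °C in the ZT27 set, which overlapped nowhere but did not pass (-0.079 ± 0.062, adjusted p = 0.28), and at 1542, 1465 and 1658 at 19 °C and 1157, 1085 and 1065 at 4 °C in the ZT45 set, a log2 fold change of -0.50 ± 0.062, adjusted p = 7.4e-07.

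PSAE1 and PSAE2 differed in the ZT27 set. PSAE1 stood at 1089, 1002 and 932 at 19 °C and 1004, 1059 and 951 at 4 °C in WT, with the groups overlapping, whereas PSAE2 stood at 397, 359.6 and 345 at 19 °C and 297, 321 and 304 at 4 °C, with all chilled libraries lower. PSAE2 fell by 0.25 ± 0.077, adjusted p = 0.0073, a call lost without replicate 1 of WT at 19 °C (adjusted p = 0.053). Among WT libraries of the ZT45 set, PSAE1 stood at 1043, 1003 and 998 at 19 °C and 793, 763 and 803 at 4 °C and PSAE2 at 309, 298 and 282 at 19 °C and 240.4, 250 and 253 at 4 °C. Both fell without overlap, PSAE1 by -0.37 ± 0.079, adjusted p = 0.0007, and PSAE2 by -0.26 ± 0.077, adjusted p = 0.011, the latter lost without replicate 1 of WT at 19 °C (adjusted p = 0.054).

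In sig5-3, PSAE1 rose in the ZT27 set while PSAD2 fell, and the other 4 genes of this group did not pass. PSAE1 stood at 1106, 1056 and 1070 at 19 °C and 1444, 1118 and 1178 at 4 °C in the ZT27 set, and the rise (0.20 ± 0.079, adjusted p = 0.031) was lost without replicate 1 at 4 °C, without replicate 2 or without replicate 3 at 19 °C (highest adjusted p = 0.25). Scaling to equal totals turned its sign, to -0.061. PSAE2 stood at 394, 388 and 395 at 19 °C and 441, 342 and 367 at 4 °C and overlapped. From ZT45, PSAE1 stood at 1124, 1057 and 1195 at 19 °C and 848, 812 and 747 at 4 °C and PSAE2 at 318, 295 and 343 at 19 °C and 274, 262 and 241 at 4 °C, both without overlap and lower, with log2 fold changes of -0.49 ± 0.079, adjusted p = 2.8e-05, and -0.30 ± 0.077, adjusted p = 0.004. PSAF and PSAN did not pass in the ZT27 set. From ZT45 PSAN fell in WT by -0.33 ± 0.056, adjusted p = 4.5e-05, and PSAF by -0.34 ± 0.11, adjusted p = 0.023, where PSAF lost its call in 5 of the 24 omissions of 1 library (all but replicate 3 at 19 °C among the 6 WT libraries of that set, highest adjusted p = 0.088).

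The membrane subunits of photosystem I help bind the antenna (PSAG, PSAK), form its docking side for mobile antenna complexes (PSAH, PSAL, PSAO) and stabilize the core. In the ZT27 set 0 of these 6 genes passed in WT by limma (0 at an unadjusted p under 0.05), and PSAO, with the largest change, stood at 2256, 2027 and 1981 at 19 °C and 1822, 1959 and 1754 at 4 °C, a log2 fold change of -0.18 ± 0.10, adjusted p = 0.15. After chilling from ZT45 5 of 6 fell in WT and 6 of 6 in sig5-3. PSAH2 led in WT, with 873, 912 and 771 at 19 °C and 582, 541 and 609 at 4 °C, and PSAO in sig5-3, with 1757, 1593 and 1877 at 19 °C and 1217, 1186 and 1072 at 4 °C. Neither gene's groups overlapped, with -0.56 ± 0.084, adjusted p = 1e-05, for PSAH2 and -0.59 ± 0.10, adjusted p = 9.1e-05, for PSAO. PSAG, at -0.32 ± 0.10, adjusted p = 0.017 in WT, lost its call without replicate 1 or 3 at 19 °C or without replicate 3 at 4 °C (highest adjusted p = 0.077).

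PSAH1, the other copy of PSAH, was the photosystem I gene that did not pass in WT in the ZT45 set. It stood there at 661, 652 and 622 at 19 °C and 582, 561 and 567 at 4 °C, which did not overlap, with -0.18 ± 0.095, adjusted p = 0.15. Within the ZT27 set of WT, PSAH1 stood at 690.4, 604 and 639 at 19 °C and 601, 625 and 567 at 4 °C and PSAH2 at 827, 720.3 and 774 at 19 °C and 676, 736 and 692 at 4 °C, and neither passed. In sig5-3, PSAH1 stood at 629, 656 and 652 at 19 °C and 972, 652 and 732 at 4 °C in the ZT27 set and 703, 678 and 797 at 19 °C and 618, 578 and 549.5 at 4 °C in the ZT45 set. The rise in the former (0.26 ± 0.095, adjusted p = 0.021) rested on replicate 1 at 4 °C and replicate 1 at 19 °C, without either of which it did not pass (highest adjusted p = 0.23). Its fall in the ZT45 set (-0.32 ± 0.095, adjusted p = 0.011) was lost without replicate 3 at either temperature (highest adjusted p = 0.075).

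PSAH2 in sig5-3 stood at 822, 799 and 824 at 19 °C and 869, 826 and 910.5 at 4 °C in the ZT27 set, where all chilled libraries lay above the others but the gene did not pass (0.091 ± 0.084, adjusted p = 0.36). In the ZT45 set it stood at 903, 842 and 997 at 19 °C and 712, 598 and 553 at 4 °C and fell by 0.56 ± 0.084, adjusted p = 9.8e-06. PSAK, with the largest change of this group in sig5-3 in the ZT27 set, stood at 1128, 1109 and 1157 at 19 °C and 1687, 1240 and 1276 at 4 °C, and rose by 0.29 ± 0.089, adjusted p = 0.0066. Without replicate 1 at 4 °C PSAK did not pass (adjusted p = 0.062), and equal totals reduced it to 0.031. PSAL was not called in the ZT27 set in either genotype and fell in the ZT45 set, by -0.37 in WT and -0.44 in sig5-3 on the log2 scale.

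Photosystem II genes fell in 4 of 11 cases in WT and in 8 of 11 in sig5-3 in the ZT45 set, where all 11 had log2 fold changes below 0 in both genotypes. The extrinsic proteins PSBO, PSBP and PSBQ cap the manganese cluster on the lumenal side, and PSBR helps to hold PSBP. None of these 6 genes passed in WT in the ZT27 set (0 of 6 by limma, and 0 at an unadjusted p under 0.05). After chilling from ZT45 3 fell in WT, PSBP1 by -0.31 ± 0.079, adjusted p = 0.0035, PSBQ2 by -0.35 ± 0.075, adjusted p = 0.00076, and PSBR by -0.25 ± 0.081, adjusted p = 0.017. PSBR lost its call without replicate 1 of WT at 19 °C or at 4 °C (highest adjusted p = 0.065). In sig5-3 all 6 fell in the ZT45 set, with a median of -0.30, and in the ZT27 set PSBP1 and PSBR rose by 0.19 and 0.23. Both rises were lost without replicate 1 at 4 °C (adjusted p up to 0.26 for PSBP1 and 0.13 for PSBR), and with equal totals both were below 0, at -0.071 and -0.033. For PSBP1, leaving out any 1 library at 19 °C or replicate 3 at 4 °C also ended the call.

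PSBQ2 had the largest change of the extrinsic proteins in the ZT45 set. It stood at 1049, 1041 and 955 at 19 °C and 821, 770.1 and 802 at 4 °C in WT and at 1152, 1064 and 1228 at 19 °C and 841, 864 and 821 at 4 °C in sig5-3, with no overlap in either. Its copy PSBQ1 stood at 1498, 1446 and 1416 at 19 °C and 1368, 1330 and 1338 at 4 °C in WT, not called (-0.11 ± 0.074, adjusted p = 0.26), and at 1681, 1557 and 1751 at 19 °C and 1385, 1411 and 1327 at 4 °C in sig5-3, a log2 fold change of -0.27 ± 0.074, adjusted p = 0.0056. Within the ZT27 set PSBQ1 stood at 1327, 1118 and 1061 at 19 °C and 1137, 1217 and 1139 at 4 °C in WT and 1238, 1275 and 1328 at 19 °C and 1585, 1318 and 1408 at 4 °C in sig5-3, and PSBQ2 at 1418, 1230 and 1109 at 19 °C and 1171, 1281 and 1161 at 4 °C in WT and 1370, 1398 and 1352 at 19 °C and 1537, 1362 and 1409 at 4 °C in sig5-3. Neither copy passed in that set in either genotype.

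PSBO1, the most abundant member, stood at 4805, 4389 and 4040 at 19 °C and 4144, 4391 and 4027 at 4 °C in the ZT27 set of WT and at 4280, 4153 and 4113 at 19 °C and 3761, 3898 and 3763 at 4 °C in the ZT45 set. It did not pass in WT. PSBO2 stood at 1316, 1167 and 1063 at 19 °C and 1197, 1250 and 1182 at 4 °C and at 1595, 1547 and 1511 at 19 °C and 1369, 1328 and 1385 at 4 °C in the same sets and did not pass. In sig5-3 PSBO1 stood at 4698, 4715 and 4899 at 19 °C and 6738, 4676 and 4730 at 4 °C in the ZT27 set, with replicate 1 far above the others, and at 4712, 4542 and 4870 at 19 °C and 3965, 3963 and 3615 at 4 °C in the ZT45 set. PSBO2 stood at 1282, 1282 and 1376 at 19 °C and 1956, 1378 and 1313 at 4 °C and at 1767, 1724 and 1888 at 19 °C and 1421, 1504 and 1397 at 4 °C. Both fell in the ZT45 set of sig5-3, by -0.29 ± 0.095, adjusted p = 0.019, and -0.32 ± 0.099, adjusted p = 0.015. Those calls were lost without replicate 3 at 19 °C or replicate 3 at 4 °C, and for PSBO1 also without replicate 1 at 19 °C (highest adjusted p = 0.087). PSBR, the member of this group with the largest change in sig5-3 in the ZT27 set, stood there at 2212, 2243 and 2211 at 19 °C and 3014, 2237 and 2621 at 4 °C, which overlapped.

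PSBS, the protein that senses lumen acidity and switches on the dissipation of excess light, had the largest rise of all members. In the ZT27 set it stood at 1301, 1095 and 1181 at 19 °C and 1803, 1816 and 1759 at 4 °C in WT, and at 1195, 1217 and 1446 at 19 °C and 2520, 2157 and 2201 at 4 °C in sig5-3. Chilled libraries were higher without overlap, by 0.59 ± 0.077, adjusted p = 4.8e-07, in WT and 0.84 ± 0.077, adjusted p = 1.4e-09, in sig5-3. Within the ZT45 set it stood at 2447, 2455 and 2285 at 19 °C and 2279, 2328 and 2341 at 4 °C in WT, which overlapped, and at 2653, 2551 and 2886 at 19 °C and 2414, 2422 and 2271 at 4 °C in sig5-3. No call was made in that set (log2 fold changes -0.048 ± 0.077, adjusted p = 0.67, and -0.19 ± 0.077, adjusted p = 0.063). Its level at 19 °C from ZT45 was already above that reached after chilling from ZT27. The rise from ZT27 passed in all 24 omissions of 1 library and with equal totals.

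Of the small membrane proteins of photosystem II, PSBY also rose in the ZT27 set, by 0.26 ± 0.074, adjusted p = 0.0045, in WT and 0.27 ± 0.074, adjusted p = 0.0029, in sig5-3. The WT call was lost without replicate 3 of WT at 19 °C (adjusted p = 0.053), and equal totals reduced PSBY to 0.11 in WT and 0.0083 in sig5-3, neither of which passed. From ZT45 PSBW fell, standing at 1481, 1496 and 1430 at 19 °C and 1088, 1113 and 1124 at 4 °C in WT, with no overlap and a log2 fold change of -0.41 ± 0.066, adjusted p = 2.9e-05. In sig5-3 PSBW fell by 0.45 and PSBY by -0.32. PSBTN passed in no chilling comparison. PSBX had the largest difference of this group in sig5-3 in the ZT45 set, -0.56 ± 0.26, adjusted p = 0.11, but did not pass. It stood at 1671, 914 and 1036 at 19 °C and 796, 812 and 756 at 4 °C there and at 1581, 785 and 819.9 at 19 °C and 775, 768 and 1460 at 4 °C in WT, so that a single library of each group was far above its partners in 3 of these 4 groups.

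Electron carriers held the sharpest contrasts between copies. PETE1, the minor plastocyanin, fell in all 4 chilling comparisons and in all 24 omissions of 1 library. It stood at 115, 109 and 107 at 19 °C and 57.4, 64.2 and 59.7 at 4 °C in the ZT27 set of WT, and at 138, 140.4 and 130.4 at 19 °C and 81.1, 72.4 and 85.8 at 4 °C in the ZT45 set. For sig5-3 it stood at 135, 115 and 119 at 19 °C and 103, 77.5 and 70.2 at 4 °C in the ZT27 set, and at 158, 145 and 156 at 19 °C and 86.7, 82.7 and 75.3 at 4 °C in the ZT45 set. In no comparison did its groups overlap. The log2 fold changes were -0.87 ± 0.097, adjusted p = 5.8e-08, and -0.77 ± 0.097, adjusted p = 9.8e-07, in WT, and -0.57 ± 0.097, adjusted p = 2.2e-05, and -0.90 ± 0.097, adjusted p = 8.8e-08, in sig5-3.

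PETE2, the major plastocyanin, passed in none of the 4. It stood at 2866, 2668 and 2741 at 19 °C and 2556, 2597 and 2498 at 4 °C in the ZT27 set of WT and at 3512, 3485 and 3256 at 19 °C and 2912, 2868 and 3127 at 4 °C in the ZT45 set, with all chilled libraries lower in both. Log2 fold changes were -0.11 ± 0.082, adjusted p = 0.25, and -0.20 ± 0.082, adjusted p = 0.056. In sig5-3 it stood at 2849, 2857 and 2927 at 19 °C and 3682, 2847 and 2747 at 4 °C and at 3581, 3413 and 3886 at 19 °C and 3323, 3158 and 2958 at 4 °C. PETC, the Rieske iron-sulfur protein of the cytochrome b6f complex, passed only in sig5-3 in the ZT27 set (0.19 ± 0.081, adjusted p = 0.049), where 20 of the 24 omissions of 1 library ended the call (highest adjusted p = 0.54, without replicate 1 at 4 °C) and equal totals gave -0.073.

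FNR2, one of the 2 leaf FNR enzymes, changed in opposite directions in the 2 time sets. From ZT27 it stood at 1328, 1121 and 1114 at 19 °C and 893, 922 and 884 at 4 °C in WT and at 1250, 1301 and 1376 at 19 °C and 807, 995 and 979 at 4 °C in sig5-3, lower without overlap in both. It fell by 0.40 ± 0.075, adjusted p = 8.2e-05, and -0.50 ± 0.075, adjusted p = 3.5e-06, respectively. From ZT45 it stood at 818, 798 and 771 at 19 °C and 981, 909 and 906 at 4 °C in WT and at 901, 888 and 972 at 19 °C and 994, 995 and 1035 at 4 °C in sig5-3, higher without overlap in both. It rose in WT by 0.23 ± 0.075, adjusted p = 0.02, and was not called in sig5-3 (0.13 ± 0.075, adjusted p = 0.18). The WT rise was lost without replicate 3 at 19 °C or replicate 1 at 4 °C (highest adjusted p = 0.095) and with equal totals (0.18, adjusted p = 0.091).

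FNR1, the other leaf enzyme, passed in no chilling comparison. It stood at 741, 666 and 698 at 19 °C and 676, 684 and 684 at 4 °C in the ZT27 set of WT and at 1000, 949.7 and 969 at 19 °C and 964, 949 and 932 at 4 °C in the ZT45 set, both overlapping. In sig5-3 it stood at 721, 734 and 748 at 19 °C and 793, 758 and 725 at 4 °C and at 1096, 1033 and 1126 at 19 °C and 973, 1023 and 1022 at 4 °C. Its log2 fold changes lay between -0.11 and 0.046.

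FD2, which carries most ferredoxin-dependent electron flow in leaves, rose in the ZT27 set. It stood at 2222, 1811 and 1852 at 19 °C and 2362, 2460 and 2223 at 4 °C in WT and at 2060, 2242 and 2596 at 19 °C and 3334, 2882 and 2446 at 4 °C in sig5-3, with log2 fold changes of 0.26 ± 0.097, adjusted p = 0.023, and 0.32 ± 0.097, adjusted p = 0.006. Chilled libraries overlapped those at 19 °C in sig5-3 and nearly met them in WT. The WT call was lost without replicate 2 or 3 at 19 °C or without replicate 1 or 2 at 4 °C (highest adjusted p = 0.11), the sig5-3 call without replicate 1 at 19 °C (adjusted p = 0.050), and both with equal totals. In the ZT45 set FD2 stood at 2863, 3015 and 2637 at 19 °C and 3116, 3131 and 3060 at 4 °C in WT and 3298, 3198 and 3382 at 19 °C and 3423, 3302 and 3053 at 4 °C in sig5-3 and did not pass.

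FD1, the minor leaf ferredoxin, fell in WT in the ZT27 set and in sig5-3 in the ZT45 set. It stood at 231, 242 and 222 at 19 °C and 204, 192 and 198 at 4 °C in the ZT27 set of WT and at 495, 512 and 482 at 19 °C and 407, 436 and 448 at 4 °C in the ZT45 set, lower without overlap in both. The log2 fold changes were -0.22 ± 0.087, adjusted p = 0.032, and -0.21 ± 0.087, adjusted p = 0.069, of which the first passed. In sig5-3 FD1 stood at 222, 218 and 216 at 19 °C and 286, 211 and 201 at 4 °C in the ZT27 set, not called at 0.074 ± 0.087, adjusted p = 0.48. In the ZT45 set of sig5-3 it stood at 479.7, 464 and 472 at 19 °C and 439.9, 382 and 376 at 4 °C, a log2 fold change of -0.24 ± 0.087, adjusted p = 0.031. Omission of 1 library ended the WT call in 4 of 24 cases (replicate 1 or 2 at 19 °C, replicate 2 or 3 at 4 °C, highest adjusted p = 0.11) and the sig5-3 call in 5 of 24 cases (each library at 19 °C, replicate 2 or 3 at 4 °C, highest adjusted p = 0.13).

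The nuclear ATP synthase genes, for the gamma (ATPC1), delta (ATPD) and b-type peripheral stalk (ATPG) subunits of the enzyme, passed rarely. In WT 0 of 3 passed in either time set by limma, and 0 had an unadjusted p under 0.05. ATPG had the largest difference in the ZT27 set of WT, 907, 806 and 839.9 at 19 °C and 920.1, 949 and 886 at 4 °C, or 0.11 ± 0.089, adjusted p = 0.3. ATPD had the largest in the ZT45 set of WT, 1237, 1230 and 1110 at 19 °C and 1104, 1054 and 1093 at 4 °C, or -0.14 ± 0.076, adjusted p = 0.17. In sig5-3 ATPG rose from ZT27, with 857, 859 and 915 at 19 °C and 1406, 1015 and 953 at 4 °C (0.34 ± 0.089, adjusted p = 0.0023), and ATPD fell from ZT45, with 1274, 1271 and 1364 at 19 °C and 1142, 1059 and 1093 at 4 °C (-0.25 ± 0.076, adjusted p = 0.014). The ATPG call passed without replicate 1 at 4 °C but not with equal totals (0.075, adjusted p = 0.26). The ATPD call was lost without replicate 3 at 19 °C or replicate 2 at 4 °C (highest adjusted p = 0.064). ATPC1 passed in no chilling comparison.

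Summed over the genes of a complex, the share of the library total is the value that scaling to equal totals compares. Photosystem I genes held 1.67, 1.64 and 1.59% of the total in WT at 19 °C in the ZT45 set and 1.20, 1.20 and 1.24% at 4 °C. Within the ZT27 set of WT these shares were 2.01, 1.89 and 1.85% and 1.60, 1.67 and 1.56%. Chilled libraries lay below in both sets, and the step was larger in the ZT45 set. Photosystem II genes held 2.51, 2.38 and 2.35% at 19 °C and 2.00, 2.03 and 2.13% at 4 °C in the ZT45 set of WT. For the electron carriers, of which PETE2 holds a large share of the sum, the lowest share at 19 °C was 1.141% and the highest at 4 °C 1.136% in the same set, close but not overlapping. In sig5-3 in the ZT45 set, photosystem I genes went from 1.74, 1.61 and 1.76% to 1.30, 1.24 and 1.18%.

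**Figure D2:**
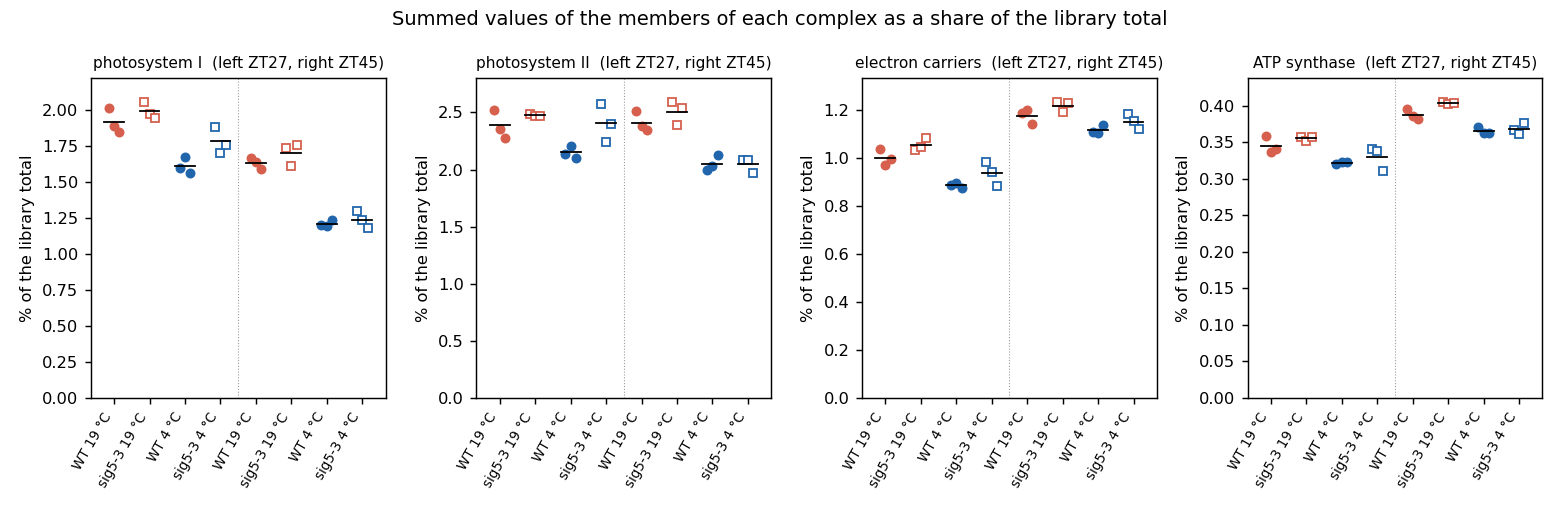
Summed values of the members of each complex as a percent of the library total, by group, with red points at 19 °C and blue points at 4 °C, filled for WT and open for sig5-3, and lines at group means. From ZT45 photosystem I genes fell from a mean of 1.63% to 1.21% in WT, and every chilled library is below every library at 19 °C.

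The second question was what the time sets alone did at 19 °C. In WT 13 members were higher in the ZT45 set than in the ZT27 set, with a background of 19.9%, and 6 were lower, with a background of 21.5%. In sig5-3 the counts were 13 and 4, with backgrounds of 22.1% and 20.4%. With equal totals both genotypes gave 11 higher and 11 lower, as that scaling moved the median of all genes to -0.13 in WT and -0.15 in sig5-3. Over all 17952 genes it gave 2579 higher and 5935 lower in WT and 2545 higher and 6654 lower in sig5-3. Of the carriers 6 of 7 were higher and FNR2 was lower in both genotypes, and of the ATP synthase genes 3 of 3 were higher in both. Of the photosystem I genes 0 of 12 were higher by limma (0 at an unadjusted p under 0.05 too), and 4 were lower in WT.

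FD1 had the largest difference, with 231, 242 and 222 in the ZT27 set and 495, 512 and 482 in the ZT45 set of WT, a log2 difference of 1.10 ± 0.087, adjusted p = 1.6e-10. PSBS followed with 1.01 ± 0.077, adjusted p = 7.7e-11. FNR1 rose with 0.47 ± 0.053, adjusted p = 8.8e-08, whereas FNR2 fell by 0.57 ± 0.075, adjusted p = 9e-07. Among photosystem I genes PSAO had the largest difference, -0.41 ± 0.10, adjusted p = 0.0027. The 2 copies of PSBQ also went apart, PSBQ1 by 0.32 ± 0.074, adjusted p = 0.0011, and PSBQ2 by -0.30 ± 0.075, adjusted p = 0.0024. These values come from libraries that were not chilled. Between the time sets, the time after dawn and the time kept in light changed together, so their effects cannot be told apart.

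**Figure D3:**
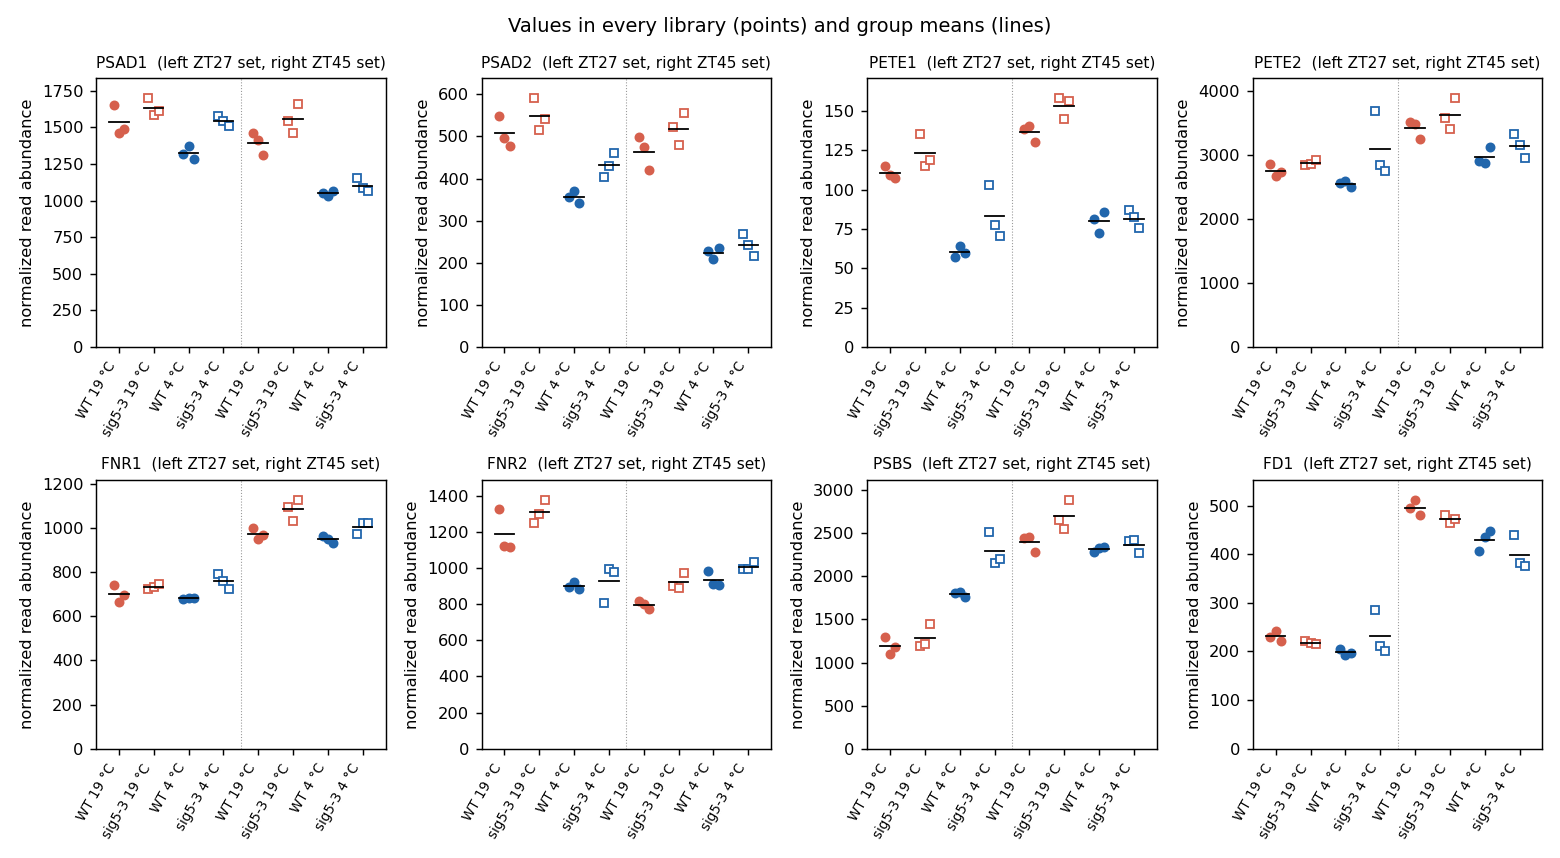
Normalized read abundance of 8 members in each of the 24 libraries, with red points at 19 °C, blue points at 4 °C, filled symbols for WT, open symbols for sig5-3 and lines at group means. PSAD2 and PETE1 are lower at 4 °C in both time sets, FNR2 is lower at 4 °C in the ZT27 set and higher in the ZT45 set, and PSBS and FD1 differ most between time sets.

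The difference of the chilling response between time sets was tested in the same fit. In WT 9 members responded lower in the ZT45 set, with a background of 12.6%, and 1 higher, with a background of 13.7%. In sig5-3 22 responded lower, with a background of 15.5%, and 1 higher, with a background of 13.7%. The member with the higher response was FNR2 in both genotypes, by 0.62 ± 0.11, adjusted p = 7.8e-05, in WT and 0.63 ± 0.11, adjusted p = 5.4e-05, in sig5-3. PSBS had the largest lower response, -0.64 ± 0.11, adjusted p = 7.6e-05, in WT and -1.02 ± 0.11, adjusted p = 8.2e-08, in sig5-3, and PSAD2 had -0.54 and -0.75. All 10 members that passed in WT also passed in sig5-3. These comparisons are between different samples within each genotype, and 7 of the 10 WT calls held in all omissions of 1 library. PSAE1, PSAK and PSBQ2 did not, with PSBQ2 lost in 9 of 24 omissions (highest adjusted p = 0.14), PSAK in 5 (0.066) and PSAE1 in 2 (0.054), all of them WT libraries. In sig5-3, 22 of the 23 calls held in every omission, and PETC was lost in 7 (highest adjusted p = 0.069). With equal totals 8 members responded lower in WT and 16 in sig5-3, with 1 higher in each. Over all genes 1621 responded lower and 3959 higher in WT, and 1339 lower and 7584 higher in sig5-3. The median over members then went from -0.18 to -0.078 in WT and from -0.51 to -0.22 in sig5-3. Medians of all genes were 0.13 and 0.28 with that scaling. In WT 13 members were above 0 with it, against 6 with the authors' scaling.

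In the list 8 subunits are encoded by a pair of genes, and the ratio of the 2 copies within a library does not depend on its scaling. Coding sequences of a pair were 75% to 88% identical, and the longest identical run was 17 to 35 bases, and the sources used here do not say how reads shared by both copies were assigned, so the level of each copy is uncertain to that extent. For each pair and time set the change of the log2 ratio with chilling was tested by exact permutation of the libraries within each genotype, two-sided, 16 tests in all with 400 arrangements each and 0.005 as the smallest p they allow.

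The plastocyanin pair showed the largest shift. PETE1 per PETE2 was 0.0402, 0.041 and 0.0391 at 19 °C and 0.0225, 0.0247 and 0.0239 at 4 °C in the ZT27 set of WT, and 0.0394, 0.0403 and 0.0401 at 19 °C and 0.0278, 0.0252 and 0.0274 at 4 °C in the ZT45 set. Ratios at 4 °C were lower in every library of both genotypes, and the log2 ratio changed by -0.71 (exact permutation p = 0.005, adjusted 0.0073) and -0.63 (exact permutation p = 0.005, adjusted 0.0073). PSAD1 per PSAD2 was 3.01, 2.96 and 3.11 at 19 °C and 3.71, 3.71 and 3.76 at 4 °C in the ZT27 set of WT and 2.93, 2.98 and 3.13 at 19 °C and 4.62, 4.91 and 4.55 at 4 °C in the ZT45 set. It changed by 0.28 (exact permutation p = 0.005, adjusted 0.0073) and 0.62 (exact permutation p = 0.005, adjusted 0.0073), always towards the major copy.

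FNR1 per FNR2 turned around between the sets. In WT it was 0.558, 0.594 and 0.626 at 19 °C and 0.758, 0.742 and 0.774 at 4 °C from ZT27, and 1.22, 1.19 and 1.26 at 19 °C and 0.983, 1.04 and 1.03 at 4 °C from ZT45. For sig5-3 it was 0.577, 0.565 and 0.544 at 19 °C and 0.983, 0.761 and 0.741 at 4 °C from ZT27 and 1.22, 1.16 and 1.16 at 19 °C and 0.979, 1.03 and 0.988 at 4 °C from ZT45. The log2 ratio changed by 0.45 (exact permutation p = 0.005, adjusted 0.0073) in the ZT27 set and by -0.25 (exact permutation p = 0.005, adjusted 0.0073) in the ZT45 set, with no overlap between temperatures in either genotype. PSAE1 per PSAE2 also reversed, changing by 0.25 (exact permutation p = 0.005, adjusted 0.0073) and -0.15 (exact permutation p = 0.005, adjusted 0.0073). In WT that ratio was 2.74, 2.79 and 2.70 at 19 °C and 3.38, 3.30 and 3.12 at 4 °C from ZT27 and 3.38, 3.36 and 3.54 at 19 °C and 3.30, 3.05 and 3.18 at 4 °C from ZT45.

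The remaining pairs were FD, PSAH, PSBQ and PSBO. FD1 per FD2 changed by -0.37 (exact permutation p = 0.01, adjusted 0.012) and -0.28 (exact permutation p = 0.005, adjusted 0.0073), towards FD2 in both sets. PSAH1 per PSAH2 changed by 0.10 (exact permutation p = 0.21, adjusted 0.21) in the ZT27 set, which did not pass, and by 0.31 (exact permutation p = 0.005, adjusted 0.0073) in the ZT45 set. PSBQ1 per PSBQ2 changed by 0.076 (exact permutation p = 0.02, adjusted 0.023) and 0.20 (exact permutation p = 0.005, adjusted 0.0073). Its ZT27 value was lost without replicate 1 of sig5-3 at 4 °C (0.065, adjusted p = 0.074) and without replicate 3 of the same group (0.076, adjusted p = 0.063). PSBO1 per PSBO2 changed by -0.087 (exact permutation p = 0.01, adjusted 0.012) and by 0.038 (exact permutation p = 0.16, adjusted 0.17), the latter not passing. Thus 14 of the 16 tests passed after adjustment over the 16.

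**Figure D4:**
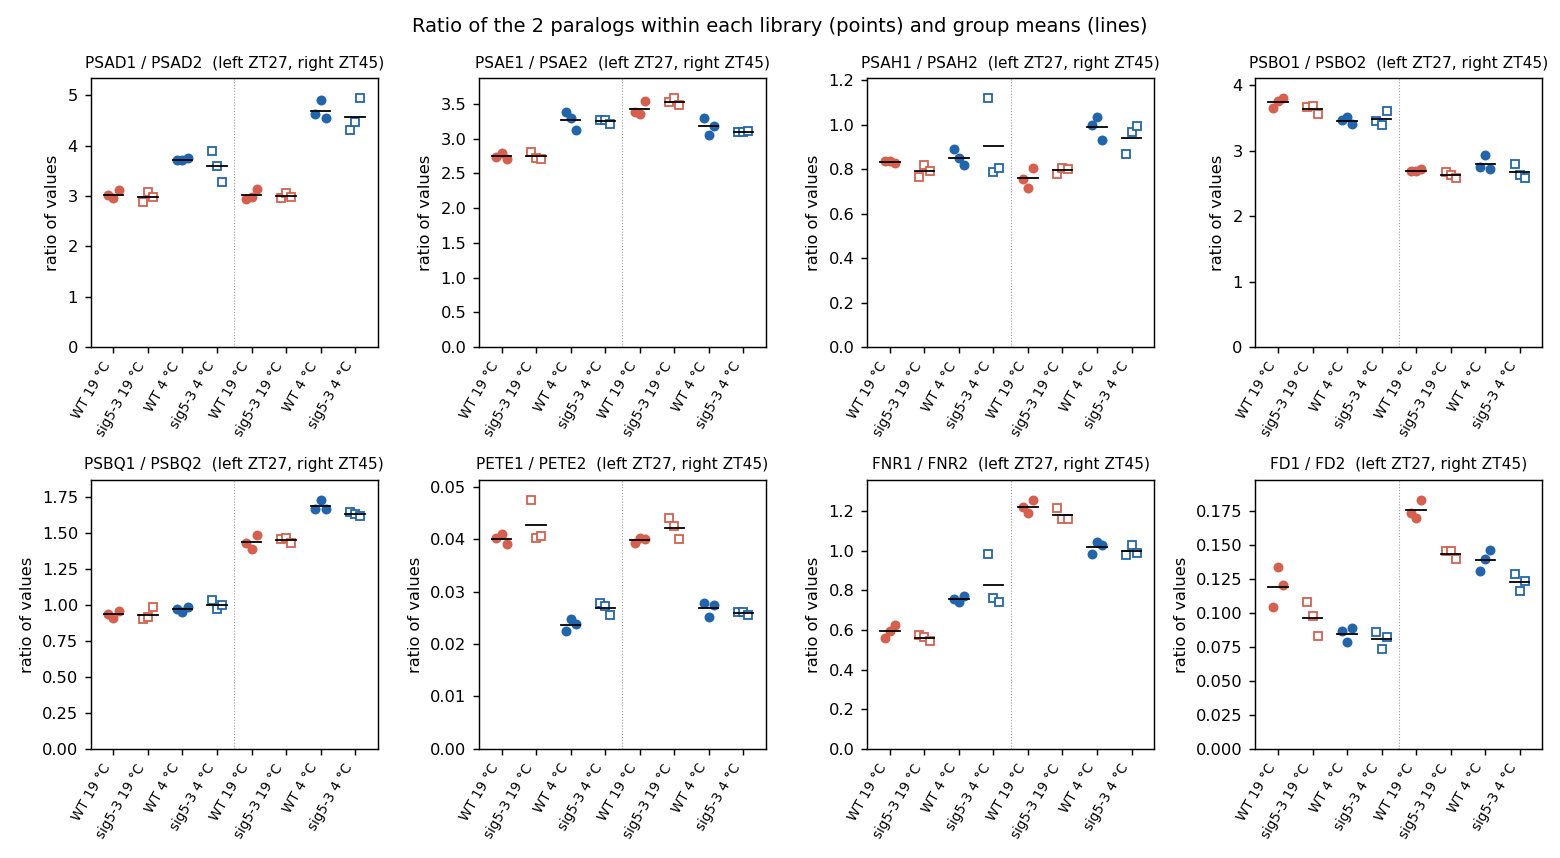
Ratio of the values of the 2 copies of each subunit within each library, by group, with red points at 19 °C, blue points at 4 °C, filled symbols for WT, open symbols for sig5-3 and lines at group means. PETE1 per PETE2 falls with chilling in both sets, and FNR1 per FNR2 rises with chilling in the ZT27 set and falls in the ZT45 set.

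Promoters of 3 pairs whose copies responded differently are shown to allow their letters to be compared: FNR, which turned around between the sets, plastocyanin, with the largest shift, and PSAE, which also reversed. Each runs from 250 bases before to 50 bases after the annotated gene start, 5′ to 3′ on the gene's own strand, from the RefSeq annotation of TAIR10.1. Capitals mark the letters CACGTG (G-box, a site of light-signalling bZIP and bHLH factors), ACGTG (its core, which every CACGTG contains on both strands) and GATAAG (I-box, frequent in genes of photosynthesis), each on either strand. FNR1 (AT5G66190) lies at chr5:26453150-26453449 on the minus strand, FNR2 (AT1G20020) at chr1:6942375-6942674 on the plus strand, PETE1 (AT1G76100) at chr1:28554881-28555180 on the minus strand, PETE2 (AT1G20340) at chr1:7043343-7043642 on the minus strand, PSAE1 (AT4G28750) at chr4:14204012-14204311 on the minus strand and PSAE2 (AT2G20260) at chr2:8736484-8736783 on the plus strand.
FNR1: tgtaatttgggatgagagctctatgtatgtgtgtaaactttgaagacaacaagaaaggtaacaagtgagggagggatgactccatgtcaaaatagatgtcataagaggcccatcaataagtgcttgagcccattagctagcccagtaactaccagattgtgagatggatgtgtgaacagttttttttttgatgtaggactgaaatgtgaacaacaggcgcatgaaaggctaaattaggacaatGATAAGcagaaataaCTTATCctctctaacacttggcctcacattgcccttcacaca
FNR2: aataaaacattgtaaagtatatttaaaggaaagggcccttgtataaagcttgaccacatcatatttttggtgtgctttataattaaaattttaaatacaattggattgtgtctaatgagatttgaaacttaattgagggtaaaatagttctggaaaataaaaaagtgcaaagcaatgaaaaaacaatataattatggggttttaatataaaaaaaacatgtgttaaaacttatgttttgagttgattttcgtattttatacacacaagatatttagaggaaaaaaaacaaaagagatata
PETE1: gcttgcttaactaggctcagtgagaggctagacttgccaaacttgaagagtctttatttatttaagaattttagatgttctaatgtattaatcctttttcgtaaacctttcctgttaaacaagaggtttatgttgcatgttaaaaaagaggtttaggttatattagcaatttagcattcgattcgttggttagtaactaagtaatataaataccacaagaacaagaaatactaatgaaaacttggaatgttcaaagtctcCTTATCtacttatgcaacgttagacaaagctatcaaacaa
PETE2: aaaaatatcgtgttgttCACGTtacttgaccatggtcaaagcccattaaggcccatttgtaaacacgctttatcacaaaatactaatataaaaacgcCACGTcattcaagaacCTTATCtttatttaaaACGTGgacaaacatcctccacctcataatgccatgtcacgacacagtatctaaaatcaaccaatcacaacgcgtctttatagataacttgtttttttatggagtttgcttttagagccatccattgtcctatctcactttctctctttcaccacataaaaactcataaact
PSAE1: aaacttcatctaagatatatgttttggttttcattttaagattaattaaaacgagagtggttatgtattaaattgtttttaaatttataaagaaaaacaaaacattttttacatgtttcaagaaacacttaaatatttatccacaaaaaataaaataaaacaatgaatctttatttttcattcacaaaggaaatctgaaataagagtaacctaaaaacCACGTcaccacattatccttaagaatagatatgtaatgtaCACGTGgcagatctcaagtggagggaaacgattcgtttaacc
PSAE2: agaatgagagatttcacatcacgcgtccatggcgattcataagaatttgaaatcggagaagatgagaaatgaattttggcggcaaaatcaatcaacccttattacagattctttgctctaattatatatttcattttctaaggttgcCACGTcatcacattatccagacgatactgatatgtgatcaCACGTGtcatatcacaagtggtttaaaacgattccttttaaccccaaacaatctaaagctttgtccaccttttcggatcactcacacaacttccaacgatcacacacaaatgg

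FNR1 held 2 I-boxes around its start, and FNR2 held none of the motifs searched in this window. PETE1 held a single I-box, and PETE2 an I-box and 3 ACGTG cores. Both PSAE genes held a G-box and an upstream ACGTG core. Over all 33 members, 12 promoters (36.4%) held CACGTG on either strand, against 8.95% of the promoters of genes with values. Both copies of PSAE, PSAH, PSBO and PSBQ were among them, and copies of 1 subunit are not independent cases. In PSAE1, PSAH1, PSBO1, PSBO2, PSBR and PSBW the only CACGTG lay after the annotated gene start. GATAAG was in 18 (54.5%), against 14.7%. ACGTG was in 16 (48.5%), against 27.5%. CCGAC, the core bound by the CBF cold factors, was in 1 (PSBQ1, 3.03%), against 16.5%. AAAATATCT (evening element) was in 1 promoter, ATPC1, against 3.13%, and AAAAATCT (bound by the clock factor CCA1) in 2 (6.06%), PSAN and PSAO, against 8.26%. These are counts of letters in short windows and do not show that a factor binds there.

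The third question was whether sig5-3 differed from WT. In 3 of 4 conditions 0 members passed by limma: at 19 °C in the ZT27 set (0.0111% of all genes passed in either direction, 2 members at an unadjusted p under 0.05), at 19 °C in the ZT45 set (0.039%, 10 members) and at 4 °C in the ZT45 set (0.0279%, 0 members). Of these, 19 °C in the ZT45 set stood closest to a difference. There 32 of 33 members were above 0, with a median of 0.15. In 20 all sig5-3 libraries lay above all WT libraries, against 15% of all genes, with 1 member the other way, against 6.44%. Members shifted together within single libraries there, with 32 below the group mean in sig5-3 replicate 2 and 31 above it in replicate 3. The 33 members are therefore not independent, and the comparison is of 3 libraries against 3. A fit to only those groups called 2 members higher. At 4 °C in the ZT27 set 19 members were higher in sig5-3, with a background of 4.58%, and 0 were lower, also at an unadjusted p under 0.05. They were PSAD1, PSAD2, PSAE1, PSAE2, PSAH1, PSAH2, PSAK, PSAL, PSAO, PSBO1, PSBO2, PSBP1, PSBQ1, PSBQ2, PSBR, PSBS, PSBW, PETE1 and PETE2. Their log2 differences lay between 0.22 for PSAD1 and 0.44 for PETE1, with the other members positive too, down to 0.037 for FNR2.

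That count, and the count over all genes with it, rested on single libraries. Without replicate 1 of sig5-3 at 4 °C, the library that lay apart, 4 members passed (PSAD2, PSBR, PSBS and PETE1). Without replicate 1 or without replicate 3 of WT at 4 °C 0 passed. Over all genes the number higher went from 822 to 237, 8 and 4 in these omissions. The median log2 difference of the members was 0.20, 0.28 and 0.25 in them, with all 33 above 0. A fit to only the 2 groups compared gave 0 members. Scaling to equal totals gave 9, where 156 of all genes were higher, and the omissions of 1 library ranged from 0 to 27 members. For PSBS the values behind its call were 1803, 1816 and 1759 in WT and 2520, 2157 and 2201 in sig5-3, which did not overlap. For PETE1 they were 57.4, 64.2 and 59.7 and 103, 77.5 and 70.2, also without overlap. PSAF, not called, ran from 2497 to 4156 within sig5-3, the highest being replicate 1.

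Averaged over the 4 conditions 19 members were higher in sig5-3, with a background of 4.03%, and 0 were lower, also at an unadjusted p under 0.05. They were PSAD1, PSAD2, PSAE1, PSAE2, PSAN, PSAH2, PSAK, PSAL, PSBO1, PSBO2, PSBP1, PSBQ1, PSBQ2, PSBS, PETE1, FNR1, FNR2, FD2 and ATPC1, with log2 differences of 0.11 (ATPC1) to 0.20 (FD2 and PETE1). Omitting the library that lay apart gave a count of 25. It fell to 9 without replicate 2 of WT at 4 °C in the ZT45 set, to 10 without replicate 3 of sig5-3 at 19 °C in that set and to 4 with equal totals. Omission of replicate 2 or 3 of WT at 19 °C or replicate 3 of WT at 4 °C in the ZT27 set, or of replicate 3 of WT at 19 °C in the ZT45 set, gave 11, and of replicate 2 of sig5-3 at 4 °C in the ZT45 set gave 12. Over all genes 724 were higher with all libraries and 1080 without the library that lay apart. The 9, 10 and 4 members stood beside 349, 342 and 126 of all genes. The differences of the members are small, with a median over the 33 of 0.14.

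The chilling response itself was not shown to differ between genotypes. The difference of responses passed for 0 members and 0% of all genes in either time set by limma. At an unadjusted p under 0.05 it held 8 members in the ZT27 set, all with the higher response in sig5-3, and 0 in the ZT45 set. The smallest adjusted p over the members was 0.42 in the ZT27 set. A rise called in sig5-3 and not in WT in the ZT27 set, such as that of PSAK or PSBR, is therefore no shown difference between the genotypes.

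**Figure D5:**
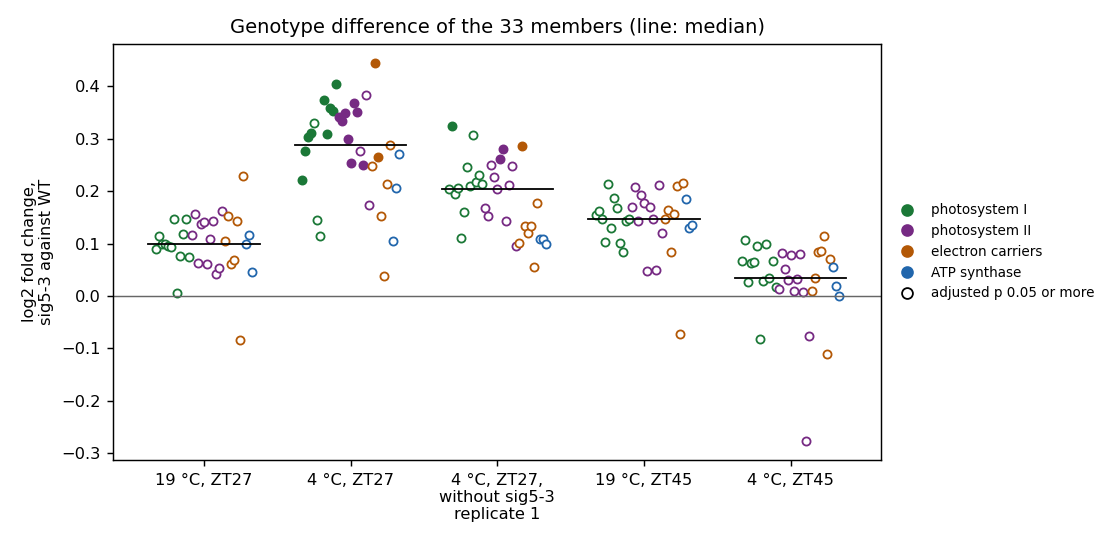
Log2 difference of sig5-3 against WT for each of the 33 members (points, coloured by complex) in the 4 conditions, and at 4 °C in the ZT27 set again without replicate 1 of sig5-3. Lines are medians, and open symbols have an adjusted p of 0.05 or more. The median was 0.29 at 4 °C in the ZT27 set with all libraries, 0.20 there without that replicate, and 0.099, 0.15 and 0.034 in the 3 other conditions.

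Other genes that work on the same chain were counted in the same way. The shares of all genes stand above (27.6% higher and 28.9% lower in WT in the ZT27 set, 20.2% and 15.5% in the ZT45 set), and no list was tested against them. Of 16 genes of cyclic electron flow around photosystem I, 5 rose and 7 fell in WT in the ZT27 set, and 1 rose and 2 fell in the ZT45 set. PGR5, needed for the antimycin-sensitive route, rose in the ZT27 set by 0.72 ± 0.083, adjusted p = 8.4e-08, and gave -0.034 ± 0.083, adjusted p = 0.79, in the ZT45 set. PNSB3, a subunit of the chloroplast NADH dehydrogenase-like (NDH) complex, fell in the ZT27 set by -1.16 ± 0.066, adjusted p = 1.9e-13. PNSL3, another NDH subunit, fell by 0.91 from ZT27 and rose by 0.36 ± 0.084, adjusted p = 0.0014, from ZT45. At 19 °C 14 of the 16 genes were higher in the ZT45 set in WT, with a background of 19.9% and a median difference of 0.48.

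Among 19 genes of photosystem assembly and repair, 8 rose and 2 fell in WT in the ZT27 set, and 2 rose and 2 fell in the ZT45 set. FTSH8, a subunit of the thylakoid protease that removes damaged photosystem II protein, rose by 1.47 ± 0.063, adjusted p = 7.6e-16, and 0.83 ± 0.063, adjusted p = 1.7e-10. FTSH5, a partner subunit, rose by 0.71 and 0.42. PAM68, an assembly factor of photosystem II, fell by 0.57 ± 0.071, adjusted p = 2.6e-07, in the ZT27 set. Of 8 genes of thylakoid kinases, phosphatases and curvature, 2 rose and 2 fell in WT from ZT27 and 1 rose and 3 fell from ZT45, and the ZT27 counts lie near the shares of all genes. STN7, the kinase of state transitions, rose by 0.39 ± 0.054, adjusted p = 1.2e-06, and fell by 0.23 ± 0.054, adjusted p = 0.0014. TAP38, the phosphatase that reverses it, fell by 0.36 from ZT27, and CURT1C, a curvature protein, fell by 0.40 from ZT45.

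Isoforms outside the 33 were few. Of 6 ferredoxin, FNR and gamma-subunit genes, 2 rose and 2 fell in WT from ZT27, near the shares of all genes, and 1 fell from ZT45. RFNR2, a root-type FNR, rose by 0.46 ± 0.084, adjusted p = 5.2e-05, and RFNR1 fell by 0.30 ± 0.073, adjusted p = 0.001. FDC1, a ferredoxin-like protein, fell by 0.60 ± 0.10, adjusted p = 2.6e-05. Of the 2 membrane anchors of FNR, TROL rose by 0.28 ± 0.067, adjusted p = 0.00099, from ZT27 and TIC62 fell by 0.23 ± 0.074, adjusted p = 0.017, from ZT45. Among 6 reference genes often used for normalization, 2 rose and 1 fell in WT from ZT27 and 2 rose from ZT45, with medians of 0.094 and 0.13. Of the 6 root markers with values, 2 rose and 1 fell from ZT27 and 3 rose from ZT45. SCR, a regulator of the root endodermis, went from 38.6, 34.8 and 38.4 to 54.1, 46.5 and 46.5 in the ZT45 set of WT, beside the fall of the photosystem I genes. SCR fell from ZT27 in both genotypes, and at 19 °C it was higher in the ZT45 set than in the ZT27 set. In the ZT45 set of WT, log2 fold changes were above 0 for 4 of the 6 markers and below 0 for 2. The part of root content in the fall of the photosystem I genes was not tested.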

How the data were processed

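RNA from whole seedlings was sequenced with a stranded kit, per the labels' protocols, and the deposited table gives 1 signal per gene and library, a normalized read abundance made by the authors. The submitters' processing notes name STAR 2.4.1d and Partek 6.6. No source used here gives the exact scaling. The design text calls the genome TAIR11, and the table holds no coordinates, so positions and promoters come from RefSeq TAIR10.1 through the gene identifiers.

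From these values, log2(value + 0.5) was fitted with limma 3.58.1 in R 4.3.3 over 17952 genes and 8 group means (16 residual degrees of freedom, trended and robust moderation), with Benjamini-Hochberg adjustment over all genes in each of 15 comparisons. Genes with an adjusted p below 0.05 passed. Low values are whole multiples of 1 read's worth for 88.9% to 91.4% of values under 30 (tolerance 0.05 steps), from which depth was estimated. These depth estimates carry no error term, and values after ± are standard errors of the limma fit. Ratios of paralogs were tested by exact permutation. The fit was tested on simulated data.

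Nothing says that replicates came from separate cultures, so p-values measure the spread between these samples. In limma each gene had 1 variance for all 8 groups. Standard errors therefore did not widen for sig5-3 at 4 °C in the ZT27 set. Its libraries scattered most, with root mean square log2 deviations of 0.263, 0.17 and 0.163. Replicate numbers did not pair the samples. Alternatives were equal totals, median-ratio scaling, pseudocounts of 0.1 and 2, a mean of at least 10, a variance model without trend, a fit to only the groups compared, the replicate number as a block, and each library left out. All members were accounted for by role, and values in every library were given for the largest change of each role group, for members passing against most of their complex and for both genes of a pair. From each further list up to 3 genes with the smallest adjusted p, and those passing against the rest, were named. Earlier results of these data were known when members and lists were chosen, though the list of members used no measured value. Python 3.11.15 with numpy 2.4.6, pandas 2.3.3, biopython 1.88 and matplotlib 3.10.9 was used.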

Additional observations from a re-analysis of the deposited data

Results flagged for a closer look

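The chilling response differed between the 2 time sets by the test of that difference. In WT 9 members responded lower in the ZT45 set and 1 higher, and in sig5-3 22 lower and 1 higher. The 10 members that passed in both genotypes have the following log2 differences, ZT45 minus ZT27. PSBS had -0.64 in WT and -1.02 in sig5-3. PSAD2 had -0.54 and -0.75, PSAH2 -0.42 and -0.65, PSAK -0.39 and -0.68, PSAN -0.39 and -0.47, and PSAE1 -0.36 and -0.69. PSBY had -0.38 and -0.59, PSBW -0.33 and -0.58, and PSBQ2 -0.30 and -0.51. FNR2 had the opposite sign, with 0.62 and 0.63. Start and length of chilling cannot be told apart in these differences. The counts also depend on scaling, since with equal totals 8 members responded lower in WT and 16 in sig5-3. With that scaling 1621 of all genes responded lower in WT and 1339 in sig5-3.

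For 2 pairs every library moved one way in one time set and the other way in the other. The log2 ratio of PSAE1 to PSAE2 changed by 0.25 in the ZT27 set and by -0.15 in the ZT45 set. The log2 ratio of FNR1 to FNR2 changed by 0.45 and by -0.25. The difference between time sets was itself not tested for these ratios. Groups of 3 libraries are too small for a check of single outlying values.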

How the results depend on the processing

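Of 575 counts of members under other settings 28 lay beyond 1.5 times the reported count, and of 3040 values of single members 5 turned sign and 123 lost their call. Equal totals moved 9 of 18 counts, to 1 higher and 22 lower (chilling, WT, ZT27), 0 higher (WT, ZT45), 1 higher and 16 lower (sig5-3, ZT27), 11 lower in both genotypes between time sets, 9 higher in sig5-3 at 4 °C in the ZT27 set and 4 averaged. The counts of all genes, given above, moved with equal totals too. With that scaling PSAE1 (-0.061), PSAH1 (-0.00026), PSBP1 (-0.071), PSBR (-0.033) and PETC (-0.073) turned sign in sig5-3 in the ZT27 set. A fit to only the groups compared gave 2 higher (WT, ZT45), 1 higher (sig5-3, ZT27), 2 higher in sig5-3 at 19 °C in the ZT45 set and 0 at 4 °C in the ZT27 set, with fewer samples behind each spread. Leaving out 1 library gave 1 to 4 higher (WT, ZT27), 0 to 1 (WT, ZT45), 4 to 14 (sig5-3, ZT27), 0 to 27 for sig5-3 at 4 °C in the ZT27 set and 9 to 27 averaged. The PSBQ1 to PSBQ2 ratio in the ZT27 set ran from 0.065 to 0.095 over the omissions and lost its call in 2 of them (0.065 and 0.076). Other causes were not tested.

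With the replicate block, 9 members rose and 3 fell in sig5-3 in the ZT27 set, where PETC was lost (adjusted p = 0.05), and 18 were higher in sig5-3 at 4 °C in that set. Replicate numbers did not pair the samples, since the correlations of same-numbered libraries over 84 pairs ran from -0.32 to 0.29, with 13 over 0.1. With 3 libraries a group, small differences could be missed.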
